A study of Mus with 2 samples.

Results

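The Hox genes of the newborn mouse kidney were read out cell class by cell class. Members were all features whose symbol is Hoxa, Hoxb, Hoxc or Hoxd followed by a number, which gave 39 genes of 28693 features. They lie in 4 clusters, with coordinates from RefSeq on assembly GRCm38.p6. The Hoxa cluster holds 11 genes at chr6:52155367-52260880, Hoxb 10 genes at chr11:96194316-96368254, Hoxc 9 genes at chr15:102921131-103036856 and Hoxd 9 genes at chr2:74668225-74765142. Of the 39 members, 31 had at least 100 UMIs (unique molecular identifiers, which count captured transcripts) in the kept cells of each library, and 6 had fewer. The other 2, Hoxb13 and Hoxc12, had 0 of 207506573 UMIs, which allows a level of up to 0.0145 CPM (UMIs scaled to a common library total).

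Hox genes encode homeodomain transcription factors. Within a cluster they are switched on along the body axis in the order in which they stand on the chromosome, and genes with the same number in different clusters are paralogues. In the kidney the Hox11 paralogues are required in nephron progenitors for outgrowth and branching of the ureteric bud, and the Hox10 paralogues are required in the stroma. A Hoxb7 promoter fragment is widely used to drive transgenes in the ureteric bud and its collecting ducts.

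The samples were 2 kidney libraries from P0 mice with the genotype Rbpj c/- ; Foxd1cre/+, here called library 1 and library 2. Rbpj is the transcription factor through which Notch receptors act. Its conditional allele (c) was targeted for deletion by Cre expressed under Foxd1, a gene of renal stromal precursors. The other allele is written as -, the usual sign for a null allele, and is not limited to the Foxd1 lineage. The series design names 4 libraries, and the controls (Rbpj c/+ ; Foxd1cre/+) were not analysed here, so all comparisons are between cell classes within mutant kidneys. Nothing in the labels says that the libraries came from separate or unpooled animals. The p-values measure only how far class differences varied between these libraries, which may be technical.

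The libraries held 163405630 and 135436576 UMIs, and 5910 and 4937 cells were kept, with median depths of 11716.5 and 12196 UMIs. Of the barcodes with at least 2000 UMIs, 8 occurred in both libraries, 5 of them among kept cells. Clustering without the Hox genes gave 32 clusters, from which marker lists named 12 classes, while 6 clusters with 1362 cells (12.6%) stayed unnamed. A class name means that its clusters resemble that cell type by markers ("stroma-like"), and the ending is left out below. Classes held from 60 cells (mural) to 2160 cells (stroma). Foxd1 stood at 95.5 and 93.9 CPM in stroma, 268 and 244 CPM in podocytes and 29.2 and 30.6 CPM in nephron progenitors. Rbpj stood at 25.1 and 24.3 CPM in stroma, 54.5 and 59.2 CPM in podocytes, 65.1 and 91.7 CPM in mural cells and 61.5 and 58.3 CPM in nephron progenitors, and 3′ UMIs do not tell a recombined transcript from an intact one.

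Summed Hox expression separated most classes. It was highest in distal tubule, at 3338 ± 48.4 CPM (mean ± SD, n = 2), and in loop of Henle, at 3217 ± 114 CPM. Nephron progenitors, the cells that form nephrons, held 2579 ± 29.4 CPM, ureteric epithelium 2283 ± 18.1 CPM and early nephron 1968 ± 12.6 CPM. Podocytes (1100.3 ± 26.1 CPM), stroma (1098 ± 0.898 CPM) and proximal tubule (1073 ± 26.4 CPM) lay close together, and the podocyte libraries overlapped both others. Endothelium (472 ± 32.9 CPM) and mural cells (436 ± 4.74 CPM) were lower.

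Blood cells had the lowest Hox sums of the 12 named classes. Erythroid cells held 71.7 ± 5.92 CPM of Hox UMIs and immune cells 46.0 ± 0.893 CPM. Barcodes with at most 100 UMIs, which carry mostly free RNA, held 1165 and 1097 CPM. Whether the Hox UMIs of blood cells came from free RNA, from barcodes with more than 1 cell or from the cells themselves was not tested. Erythroid levels are given below, as values for comparison, beside several genes that were low in another class.

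**Figure D1:**
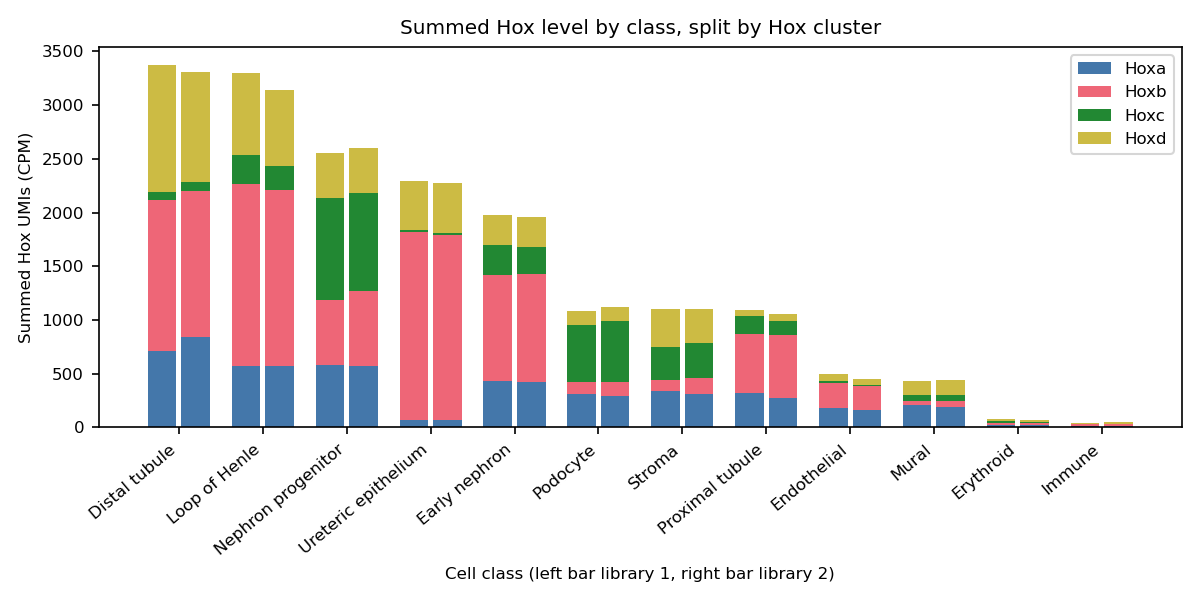
Summed Hox UMIs in CPM (y axis) in each cell class (x axis), with 1 bar per library and colours for the Hoxa, Hoxb, Hoxc and Hoxd clusters. Hoxb fills 76.2% of the ureteric bars and 11.4% of the stromal bars (means of 2 libraries), and Hoxc fills 36.1% of the nephron progenitor bars and 0.507% of the ureteric bars.

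The 4 clusters contributed unequally. In ureteric epithelium 76.2% ± 0.269 (SD, n = 2) of Hox UMIs came from Hoxb and 20.3% ± 0.230 from Hoxd, while Hoxa gave 2.94% ± 0.0545 and Hoxc 0.507% ± 0.0938. Nephron progenitors drew 36.1% ± 1.44 from Hoxc, 25.1% ± 2.33 from Hoxb, 22.4% ± 0.499 from Hoxa and 16.4% ± 0.384 from Hoxd. Stroma drew 30.2% ± 2.27 from Hoxd, 29.6% ± 1.36 from Hoxa, 28.8% ± 0.962 from Hoxc and 11.4% ± 2.67 from Hoxb. Stroma thus used 3 clusters about equally, and ureteric epithelium mainly 1. Podocytes took 49.7% ± 1.78 of their Hox UMIs from Hoxc.

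The classes also weighted different paralogues. Groups 9 to 13, the posterior end of each cluster, made up 70.6% ± 1.16 of Hox UMIs in mural cells, 63.4% ± 2.46 in stroma and 52.5% ± 1.11 in nephron progenitors. The share was 26.9% ± 1.59 in ureteric epithelium and 22.7% ± 1.49 in endothelium. UMIs count transcript 3′ ends, so genes were set side by side without length scaling. The spans of 10 members overlap another member (Hoxa3 with Hoxa4, Hoxa5 and Hoxa6, Hoxb3 with Hoxb4, Hoxd3 with Hoxd4, Hoxd10 with Hoxd11), and their counts are uncertain where reads fell in the shared stretch.

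**Figure D2:**
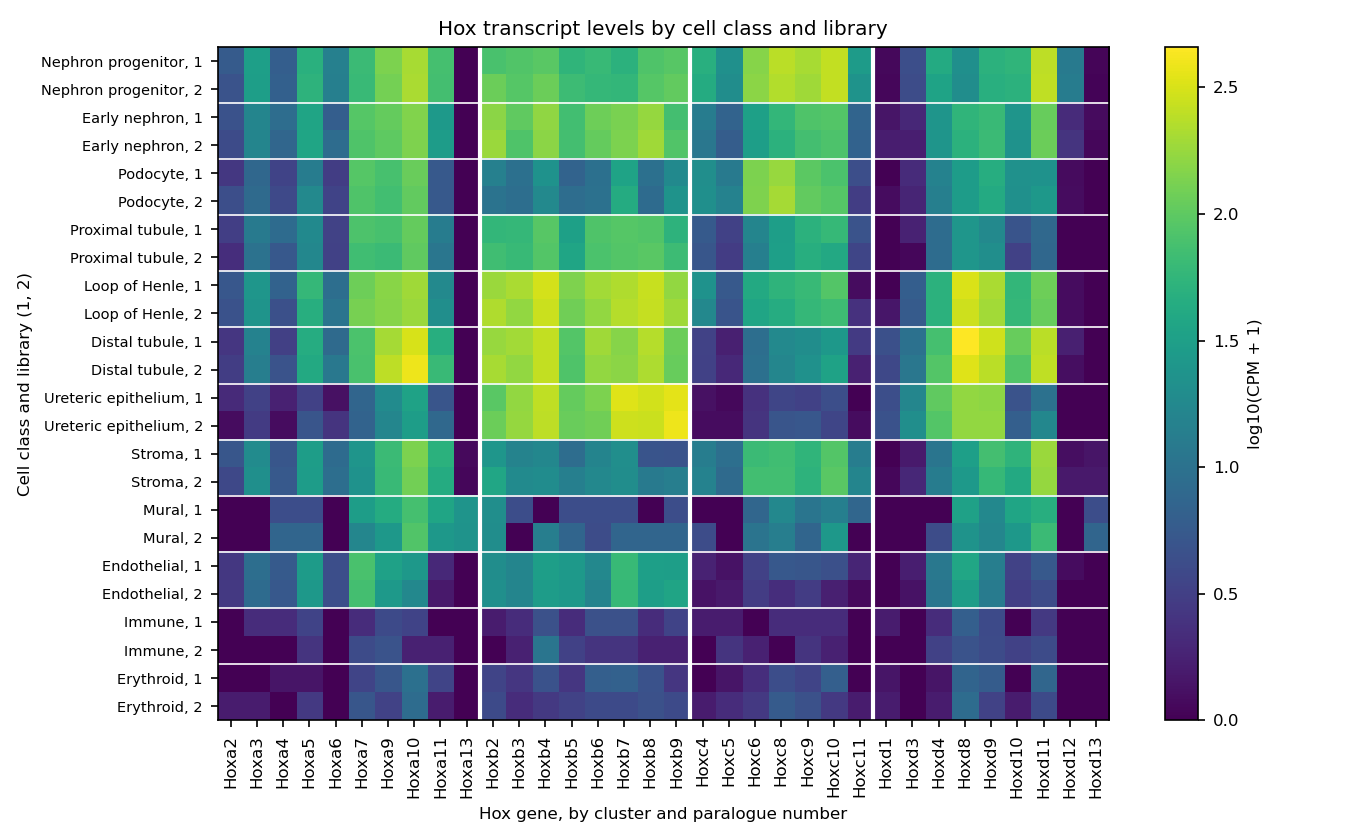
Level of each of the 34 Hox genes that passed the filter on low counts (one axis, by cluster and paralogue number) in each cell class and library (other axis), coloured by log10(CPM + 1). Hoxc genes are high in nephron progenitors (Hoxc10 262 and 261 CPM) and low in ureteric epithelium (Hoxc10 3.38 and 2.56 CPM), where Hoxb genes are high.

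Among the 12 named classes, 13 of the 31 members with full counts had their highest mean in nephron progenitors, 7 in loop of Henle, 5 in distal tubule, 5 in ureteric epithelium and 1 in early nephron. For 23 of the 31 the top class lay above the next one in both libraries. None of the 31 had its highest mean among these classes in stroma, endothelium or podocytes. The unnamed clusters are outside this order, and 4 of the 31 were higher in unnamed cluster 8, described below with the stroma. These were Hoxa10 and Hoxd10, counted here for distal tubule, and Hoxa11 and Hoxd11, counted here for nephron progenitors. Single cells carried several Hox genes at once. With each cell thinned at random to 4000 UMIs, cells had on average, in library 1 and library 2, 8.43 and 8.23 distinct Hox genes in loop of Henle, 7.06 and 7.21 in nephron progenitors, 5.21 and 5.44 in ureteric epithelium, 3.57 and 3.68 in stroma and 1.71 and 1.66 in endothelium. Erythroid cells had 0.240 and 0.228.

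Classes were tested against each other on UMIs summed per class and library, with library as a block, in edgeR (quasi-likelihood test), and p-values were adjusted by Benjamini and Hochberg's method over all 15155 genes tested (threshold 0.05). Of the 39 members 34 passed the filter on low counts, and 5 did not. Fold changes are fitted log2 values after TMM scaling, so they differ slightly from ratios of CPM. Comparisons that share a class share its libraries. The 12 classes were fitted together with a shared estimate of the spread (11 residual degrees of freedom), because the libraries of a pair alone give too few. The other classes thus help to set each p-value. Between libraries, 47 of 468 gene and class pairs had 95% Poisson intervals that did not overlap, and 8 of them differed over 1.5-fold.

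Stroma and ureteric epithelium had opposite codes. Of 34 members 20 were higher in stroma, against 28.1% of all genes tested, and 13 were lower, against 30.3% of all genes. The median log2 fold change was 2.77 over the members, 2.01 with 2 genes at 0 ureteric UMIs set at their bound and 1 gene without a usable fold left out, and -0.0023 over all genes. All 8 tested Hoxb genes were lower in stroma, all 7 Hoxc genes and 9 of 10 Hoxa genes were higher, and Hoxd split into 4 higher and 5 lower.

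Hoxb genes carried the ureteric side. Hoxb9 stood at 358 and 388 CPM in ureteric epithelium and 3.80 and 12.6 CPM in stroma, a log2 fold change of -5.47 ± 0.20 (SE, adjusted p = 1.56e-17). The classes did not overlap, but the stromal libraries differed 3.31-fold, and the change was -6.44 in library 1 alone and -4.81 in library 2 alone. Hoxb7 stood at 337 and 288 CPM in ureteric epithelium and 19.4 and 19.1 CPM in stroma. Hoxb8 stood at 300.5 and 281 CPM against 3.89 and 11.1 CPM, and the stromal value of library 1 was close to the erythroid level (3.71 and 3.56 CPM). Each of Hoxb2, Hoxb3, Hoxb4, Hoxb5 and Hoxb6 was also higher in both ureteric libraries, with Hoxb4 at 252 and 249 CPM against 16.0 and 18.7 CPM.

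Hoxc genes showed the opposite state. Hoxc6 had 1451 UMIs in stroma (64.4 and 70.1 CPM) and 16 in ureteric epithelium (1.38 and 1.49 CPM), a log2 fold change of 5.66 ± 0.19 (SE, adjusted p = 3.32e-18). Hoxc4 had 287 stromal and 3 ureteric UMIs, a ratio of CPM values of 49.3 (95% interval 16.7 to 241). Hoxc11 had 297 and 1, the 1 UMI from library 2, a ratio of 153 (95% interval 27.3 to 6071). Such intervals cover counting error only. Hoxc8 stood at 2.61 and 4.06 CPM in ureteric epithelium, 3.30 and 4.74 CPM in erythroid cells and 1.19 and 0 CPM in immune cells, so its ureteric level was below the erythroid level and above the immune level in each library.

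The Hoxd cluster changed state between neighbouring genes. Hoxd9 stood at 161 and 167 CPM in ureteric epithelium and the adjacent Hoxd10 at 3.84 and 5.34 CPM, which was 2.39% and 3.19% of the Hoxd9 level. The same ratio was 72.5% and 66.4% in stroma, 107% and 108% in nephron progenitors and 37.5% and 35.2% in distal tubule. It was also low in endothelium (18.4% and 18.2%) and proximal tubule (23.2% and 11.4%). In both libraries the ureteric ratio was below those of these 5 classes, a difference that carries no test of its own. Part of the ureteric Hoxd10 came from 14 cells rich in posterior Hoxa UMIs, described below. Without them it stood at 2.38 and 2.32 CPM, or 1.46% and 1.40% of the Hoxd9 level.

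Hoxd genes on the 2 sides of this step went opposite ways between stroma and ureteric epithelium, with Hoxd9 and lower numbers higher in ureteric epithelium. Hoxd11 stood at 181 and 173 CPM in stroma and 8.90 and 16.2 CPM in ureteric epithelium, a log2 fold change of 3.99 ± 0.15 (SE, adjusted p = 4.33e-17). Hoxd12 (8 stromal UMIs) and Hoxd13 (10) had 0 ureteric UMIs, at least 1.38-fold and 1.72-fold higher against a floor of 3 UMIs over the class. At the other end Hoxd1 had 39 UMIs in ureteric epithelium and 1 in stroma (from library 2), a ratio of 75.6 (95% interval 12.8 to 3062). Hoxd3 (15.7 and 19.6 CPM against 0.567 and 0.962 CPM) was higher in ureteric epithelium as well, and so was Hoxd4 (101 and 86.7 CPM, -3.00 ± 0.13 SE, adjusted p = 5.41e-16).

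**Figure D3:**
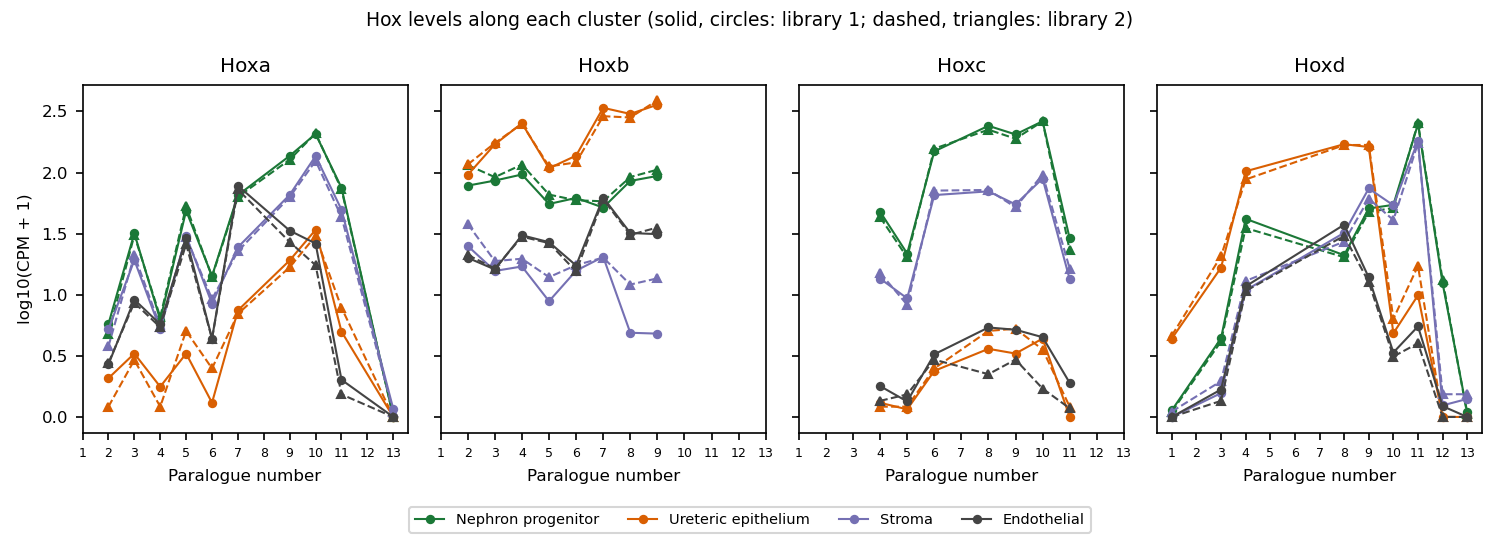
Hox levels as log10(CPM + 1) (y axis) against paralogue number (x axis) in each of the 4 clusters, for the 34 genes that passed the filter on low counts, in nephron progenitors, ureteric epithelium, stroma and endothelium, with a line per library. In Hoxd the ureteric lines drop from 161 and 167 CPM at Hoxd9 to 3.84 and 5.34 CPM at Hoxd10, while stromal Hoxd10 is 72.5% and 66.4% of Hoxd9.

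Posterior Hoxa genes were low in ureteric epithelium and sat in few cells. Hoxa10 stood at 33.0 and 29.3 CPM there and 135 and 124 CPM in stroma. Of the ureteric cells, 81.8% in library 1 and 82.5% in library 2 had no UMI of Hoxa9, Hoxa10 or Hoxa11. In each library 7 cells with at least 10 such UMIs carried 88.9% and 86.4% of them. Without those 14 of 280 cells the summed level of the 3 genes was 6.81 and 7.65 CPM, against 55.1 and 51.9 CPM with them.

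Those 14 cells, picked here by their Hoxa UMIs, also differed in depth and other markers. Their median depth was 122515 and 37071 UMIs, against 20512 and 18316 UMIs in the rest. Their Hoxd11 level was 70.0 and 152 CPM against 2.21 and 4.64 CPM, and their Hoxb sum 1836 and 1845 CPM against 1746 and 1716 CPM. The 5 distal tubule markers summed to 226 and 203 CPM in them and 38.3 and 33.8 CPM in the rest, and the ureteric markers to 2319.5 and 1902 CPM and 2510.3 and 2406 CPM. An unnamed ureteric sub-cluster of 57 cells, for which the marker score was low, had Hoxa10 at 20.8 and 117 CPM. The part of barcodes that hold more than 1 cell was not tested.

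Nephron progenitors differed from ureteric epithelium in 31 of 34 members. Of these 19 were higher in progenitors, against 28.0% of all genes, and 12 lower, against 28.6% of all genes. Over the members the median log2 fold change was 2.96 (3.26 with 1 gene at its bound and 2 left out) and 0.033 over all genes. All 7 Hoxc genes and 9 of 10 Hoxa genes were higher in progenitors, and 7 of 8 Hoxb genes were lower. Hoxb2 did not pass, at 77.1 and 114 CPM in progenitors and 94.7 and 115 CPM in ureteric epithelium.

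Most Hoxc genes were nearly absent on the ureteric side. Hoxc6 stood at 148 and 156 CPM in progenitors, a log2 fold change of 6.84 ± 0.17 (SE, adjusted p = 1.53e-20). Hoxc4 had 1877 UMIs in progenitors and 3 in ureteric epithelium, a ratio of 167 (95% interval 56.9 to 808). Hoxc5 had 842 and 2, a ratio of 112 (95% interval 30.9 to 927). For these genes both progenitor libraries lay far above both ureteric ones. Hoxc11 had 1061 and 1 UMIs, a ratio of 282 (95% interval 50.6 to 11166). Hoxd12 had 495 and 0, at least 43.9-fold higher in progenitors.

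The Hox11 paralogues marked the progenitors against the ureteric tree. Hoxd11 stood at 248 and 254 CPM in progenitors, Hoxa11 at 74.0 and 71.9 CPM and Hoxc11 at 27.9 and 22.1 CPM. In ureteric epithelium Hoxa11 stood at 3.99 and 6.83 CPM. At 4000 UMIs per cell a UMI of group 11 was found in 74.5% (71.4 to 77.5) (95% exact binomial interval) and 73.9% (70.9 to 76.8) of progenitors. In ureteric cells the shares were 4.20% (1.56 to 8.91) and 7.52% (3.66 to 13.4), and in erythroid cells 4.20% (2.11 to 7.39) and 0.971% (0.118 to 3.46). Without thinning the shares were 97.9% and 97.1% in progenitors, 11.9% and 15.3% in ureteric cells and 3.77% and 1.96% in erythroid cells. Median depths were 15784 and 14278 UMIs in progenitors, 21335 and 18992 in ureteric cells and 4370.5 and 4461 in erythroid cells.

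Most Hox genes were lower in stroma than in nephron progenitors. Of 34 members 3 were higher in stroma, against 27.7% of all genes, and 26 were lower, against 28.5% of all genes. Members had a median log2 fold change of -1.27 (-1.35 with 1 gene left out) and -0.019 over all genes. The 3 higher genes were all in Hoxd. Hoxd8 stood at 31.1 and 26.2 CPM in stroma against 20.1 and 19.3 CPM, and Hoxd9 at 73.0 and 60.1 CPM against 49.8 and 46.5 CPM. Hoxd13 rested on 10 stromal and 3 progenitor UMIs, a ratio of 6.46 (95% interval 1.66 to 36.5).

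The widest gaps lay in Hoxb and at Hoxd12. Hoxb9 stood at 92.7 and 104 CPM in progenitors and 3.80 and 12.6 CPM in stroma, a log2 fold change of -3.67 ± 0.20 (SE, adjusted p = 4.98e-14) that was -4.60 in library 1 alone and -3.06 in library 2 alone. Hoxb8 stood at 84.3 and 90.8 CPM in progenitors and 3.89 and 11.1 CPM in stroma, with -3.62 ± 0.19 (SE, adjusted p = 4.82e-14), and -4.44 and -3.04 in the single libraries. For both genes the stromal level was higher in library 2, and the classes still did not overlap. Hoxb4 (-2.61 ± 0.14, SE, adjusted p = 4.72e-14) and Hoxb5 (-2.55 ± 0.14, SE, adjusted p = 9.95e-14) were lower in stroma too. Hoxd12 had 8 stromal and 495 progenitor UMIs, a log2 fold change of -4.94 ± 0.39 (SE, adjusted p = 1.29e-09).

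Some posterior Hoxa and Hoxd genes lay closer together in these classes. Hoxd10 did not pass the test, at 52.9 and 39.9 CPM in stroma and 53.4 and 50.4 CPM in progenitors (-0.17 ± 0.12, SE, adjusted p = 0.239). Hoxd11 was lower in stroma by less than Hoxb8 or Hoxb9, at -0.51 ± 0.11 (SE, adjusted p = 2.32e-04), and so was Hoxa10, at -0.68 ± 0.11 (SE, adjusted p = 8.34e-06). The stroma class leaves out unnamed cluster 8, described below. There Hoxd10 (174 and 169 CPM), Hoxa10 (459.8 and 459.7 CPM) and Hoxd11 (319 and 428 CPM) lay above their progenitor levels. At 4000 UMIs a group 11 UMI was found in 56.6% (53.6 to 59.5) and 58.0% (54.7 to 61.2) of stromal cells. A group 10 UMI was found in 63.7% and 60.1% of stromal cells, 82.3% and 82.9% of progenitors and 3.44% and 3.40% of erythroid cells.

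Endothelium carried a smaller code weighted to the middle paralogues. Hoxa7 stood at 76.9 and 71.6 CPM, Hoxb7 at 61.4 and 59.4 CPM, Hoxd8 at 36.4 and 29.4 CPM and Hoxa5 at 28.1 and 24.9 CPM. All 4 lay above their erythroid levels, of which Hoxb7 was 5.78 and 2.96 CPM and Hoxd8 6.19 and 7.70 CPM. Groups 5 to 8 gave 58.1% ± 0.436 of Hox UMIs, against 48.3% ± 1.24 in podocytes, 44.8% ± 2.13 in ureteric epithelium and 26.0% ± 0.898 in stroma. Group 11 summed to 5.07 ± 1.92 CPM in endothelium, 6.61 ± 3.49 CPM in erythroid cells and 2.78 ± 1.39 CPM in immune cells, whose median depths were 8487 and 9019.5 UMIs.

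Against endothelium 18 members were higher in stroma, against 24.7% of all genes, and 6 lower, against 26.1% of all genes. The median log2 fold change was 1.20 (1.11 with 1 gene at its bound and 2 left out) and 0.0097 over all genes. All 7 Hoxc genes were higher in stroma, 5 of 8 Hoxb genes were lower, and Hoxa7 was the 1 Hoxa gene that was lower (-1.75 ± 0.11, SE, adjusted p = 4.23e-13).

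Most of the widest differences were at posterior genes. Hoxa11 stood at 48.7 and 42.3 CPM in stroma and 1.01 and 0.530 CPM in endothelium (erythroid cells 2.48 and 0.593 CPM), a log2 fold change of 5.72 ± 0.27 (SE, adjusted p = 3.60e-15). Hoxd11 (5.46 ± 0.18, SE, adjusted p = 1.72e-18) and Hoxc6 (4.93 ± 0.17, SE, adjusted p = 3.50e-18) followed the same direction in both libraries. Hoxc10 had 1980 stromal and 35 endothelial UMIs (5.23 ± 0.27, SE, adjusted p = 1.51e-14), and the change was 4.60 in library 1 alone and 7.03 in library 2 alone. Hoxd13 had 10 and 0 UMIs, at least 2.23-fold higher in stroma, and its call (adjusted p = 0.0293) was lost without the count filter (adjusted p = 0.0773) and with DESeq2 (adjusted p = 0.407).

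Nephron progenitors exceeded endothelium in 27 members, against 31.4% of all genes, and 2 were lower, against 30.2% of all genes. Over the members the median log2 fold change was 2.17 (2.03 with 1 gene at its bound and 2 left out) and 0.040 over all genes. The 2 lower genes were Hoxa7 (-0.26 ± 0.093, SE, adjusted p = 0.0178) and Hoxd8 (-0.78 ± 0.12, SE, adjusted p = 2.43e-06), both among the leading endothelial members.

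The widest differences were at Hoxc genes, Hoxa11 and Hoxd12. Hoxc10 stood at 262 and 261 CPM in progenitors and 3.49 and 0.707 CPM in endothelium, a log2 fold change of 6.75 ± 0.25 (SE, adjusted p = 1.41e-17) that was 6.17 and 8.49 in library 1 and library 2 alone. Hoxa11 (6.41 ± 0.25, SE, adjusted p = 5.16e-17) was 6.12 and 7.04 in the single libraries. Hoxc8 (6.17 ± 0.19, SE, adjusted p = 5.55e-19) was 5.71 and 7.47. In each case the endothelial level was lower in library 2, and the endothelial levels lay near those of erythroid cells (Hoxc10 5.36 and 1.78 CPM). Hoxc4 (6.11 ± 0.25, SE, adjusted p = 6.87e-17) was 5.81 and 6.83. Hoxd12 had 495 progenitor and 2 endothelial UMIs, the 2 from library 1, a ratio of 85.5 (95% interval 23.5 to 708).

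Ureteric epithelium exceeded endothelium in 16 members, against 29.1% of all genes, and 6 were lower, against 28.9% of all genes. Members had a median log2 fold change of 0.29 (0.83 with 1 gene at its bound and 3 left out) and -0.0023 over all genes. All 8 Hoxb genes were higher in ureteric epithelium, with Hoxb9 at 30.3 and 34.5 CPM in endothelium (3.37 ± 0.17, SE, adjusted p = 1.09e-14). Hoxd9 was higher too (3.58 ± 0.12, SE, adjusted p = 5.44e-18), and so was Hoxd3 (4.80 ± 0.42, SE, adjusted p = 2.06e-09), which was 4.34 and 5.58 in the single libraries. Hoxd1 had 39 ureteric and 0 endothelial UMIs, at least 16.9-fold higher. Hoxa7 went the other way, at 6.45 and 5.98 CPM in ureteric epithelium (-3.73 ± 0.15, SE, adjusted p = 6.36e-17) and 2.48 and 4.15 CPM in erythroid cells. None of the 7 Hoxc genes passed the test in this comparison. Hoxa10 (0.39 ± 0.16, SE, adjusted p = 0.0409), Hoxa11 (2.48 ± 0.46, SE, adjusted p = 4.98e-05) and Hoxd11 (1.47 ± 0.26, SE, adjusted p = 3.11e-05) were counted as higher in ureteric epithelium, but rested on the 14 cells above.

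Those cells were picked by their Hoxa UMIs and left out of the ureteric class alone. Lower Hoxa10 and Hoxa11 levels without them follow in part from that choice, so no test is given. Hoxa10 then stood at 3.75 and 4.40 CPM against 25.2 and 16.4 CPM in endothelium. Hoxa11 stood at 0.170 and 0.464 CPM, from 1 and 2 UMIs, against 1.01 and 0.530 CPM, which is too few to order the classes. Hoxd11 stood at 2.21 and 4.64 CPM against 4.51 and 3.01 CPM, and the classes overlapped.

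The nephron classes were compared with the progenitors that give rise to them. Early nephron, named from markers that include Lhx1 and Wnt4, had 9 members higher than progenitors, against 24.5% of all genes, and 19 lower, against 21.2% of all genes. The median log2 fold change was -0.52 (-0.59 with 1 gene left out) and -0.0075 over all genes. Hoxb made up 50.7% ± 1.12 of its Hox UMIs, and 5 of 8 Hoxb genes were higher. Hoxb7 stood at 132 and 136 CPM against 50.6 and 57.1 CPM in progenitors, and Hoxb8 at 174 and 188 CPM against 84.3 and 90.8 CPM. With the libraries clustered separately, 15 members were called instead of 28, 1 of them higher.

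All 7 tested Hoxc genes fell in early nephron. Hoxc6 went from 148 and 156 CPM in progenitors to 31.3 and 29.8 CPM (-2.40 ± 0.090, SE, adjusted p = 5.39e-17). Hoxc8 went from 240.0 and 223 CPM to 56.1 and 50.4 CPM (-2.21 ± 0.12, SE, adjusted p = 7.05e-14). The libraries of each class lay close together and far from the other class. Hoxc11 (-2.14 ± 0.24, SE, adjusted p = 9.83e-08) and Hoxc4 (-2.08 ± 0.11, SE, adjusted p = 9.43e-14) fell by a similar factor. Hoxd12, with 495 of its 642 UMIs in progenitors (354 of 1715 cells), had 57 in early nephron (-3.26 ± 0.27, SE, adjusted p = 4.10e-09).

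Podocytes, the filtration cells of the glomerulus, had Hoxc genes and little Hoxb. Of 34 members 2 were higher than in progenitors, against 28.4% of all genes, and 29 lower, against 32.3% of all genes. Over the members the median log2 fold change was -1.69, also with 2 genes left out, and -0.075 over all genes. All 8 Hoxb and all 7 Hoxc genes were lower, with a median log2 fold change of -3.05 in Hoxb and -1.11 in Hoxc. Hoxb8 stood at 8.49 and 7.60 CPM (-3.58 ± 0.22, SE, adjusted p = 5.78e-13) and Hoxb3 at 8.49 and 8.05 CPM (-3.55 ± 0.16, SE, adjusted p = 1.50e-15).

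Hoxc8 stood at 178 and 201 CPM in podocytes (-0.44 ± 0.12, SE, adjusted p = 0.00240) and Hoxc6 at 135 and 138 CPM (-0.30 ± 0.088, SE, adjusted p = 0.00411), both lower than in progenitors by a small step, while Hoxc11 stood at 3.40 and 2.01 CPM. The Hox11 paralogues were low together. Hoxd11 stood at 21.9 and 25.5 CPM (-3.56 ± 0.14, SE, adjusted p = 4.74e-17) and Hoxa11 at 4.53 and 4.47 CPM (-4.16 ± 0.20, SE, adjusted p = 4.30e-15). Hoxd12 had 2 podocyte UMIs, and its progenitor level was higher by a ratio of 57.5 (95% interval 15.8 to 476). Hoxa7 (90.0 and 84.1 CPM) and Hoxd8 (28.7 and 28.4 CPM) were the 2 genes above progenitors.

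**Figure D4:**
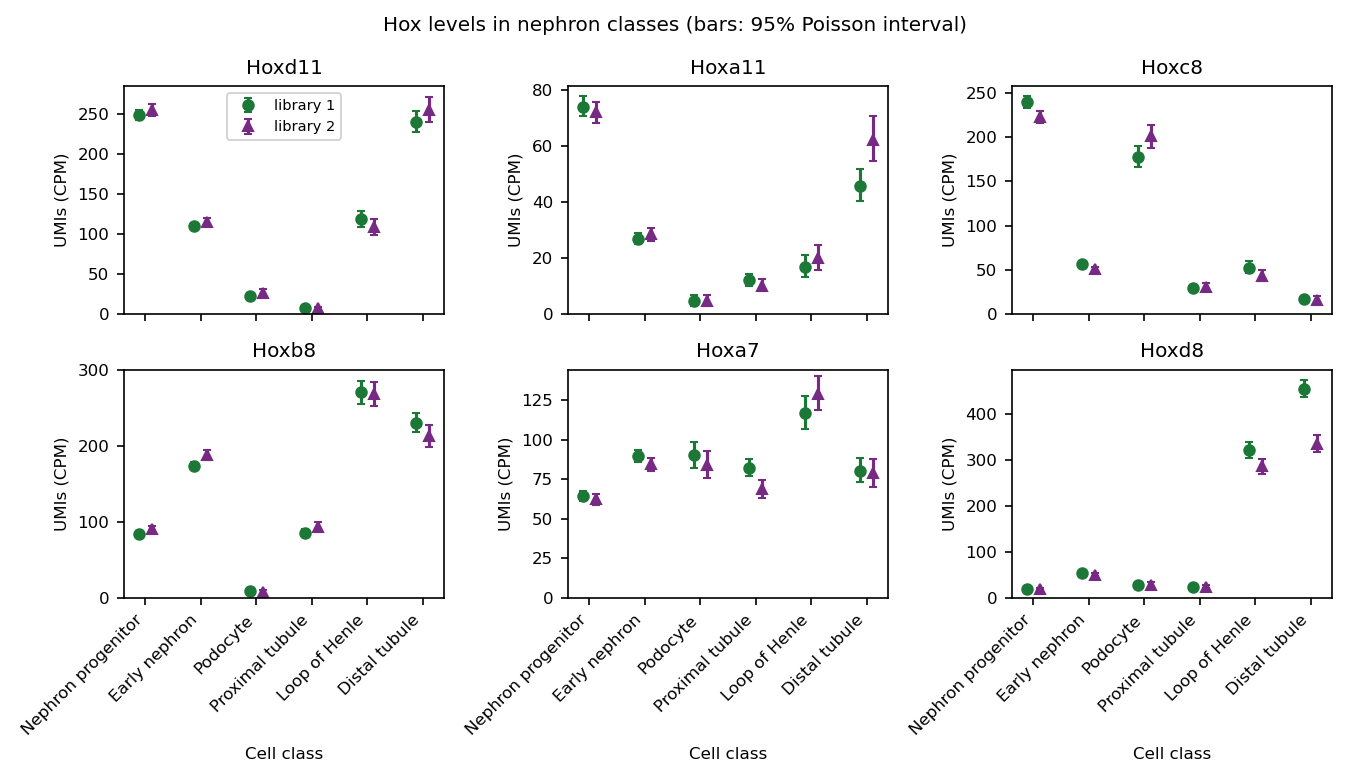
Levels of Hoxd11, Hoxa11, Hoxc8, Hoxb8, Hoxa7 and Hoxd8 in CPM (y axes) in the nephron classes (x axis), with a point per library and 95% Poisson intervals as bars. Hoxd11 is low in podocytes (21.9 and 25.5 CPM) and proximal tubule (6.99 and 6.71 CPM) and high in distal tubule (239.9 and 255 CPM), and Hoxc8 is high in progenitors and podocytes.

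Proximal tubule had little of the posterior Hoxd genes, and its Hoxb genes split into 2 higher and 4 lower than in progenitors. Of 34 members 4 were higher than in progenitors, against 32.7% of all genes, and 24 lower, against 34.0% of all genes. Members had a median log2 fold change of -1.55 (-1.48 with 2 genes at their bound and 2 left out) and -0.048 over all genes. Hoxd11 stood at 6.99 and 6.71 CPM (-5.19 ± 0.15, SE, adjusted p = 1.09e-19) and Hoxd10 at 3.90 and 2.24 CPM (-4.04 ± 0.18, SE, adjusted p = 7.20e-16). The Hoxd11 level was close to that of erythroid cells in library 1 (6.60 CPM) and above it in library 2 (2.96 CPM). Hoxd12 had 0 UMIs, at least 74.8-fold lower than in progenitors. Hoxc6 (-3.41 ± 0.11, SE, adjusted p = 3.79e-19) and Hoxc4 (-3.34 ± 0.16, SE, adjusted p = 1.18e-15) fell as well. Hoxb8 did not pass, at 84.8 and 93.5 CPM (0.025 ± 0.14, SE, adjusted p = 0.898), and the 4 higher genes were Hoxa7, Hoxb6, Hoxb7 and Hoxd8.

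The distal nephron had no planned comparison, so its levels carry no test. Hoxd11 stood at 118 and 109 CPM in loop of Henle and 239.9 and 255 CPM in distal tubule. Hoxa10 stood at 314 and 387 CPM in distal tubule and 206 and 208 CPM in progenitors. Both distal libraries lay above both progenitor libraries for Hoxa10, and they overlapped for Hoxd11. Hoxd8 stood at 322 and 286 CPM in loop of Henle, 456 and 336 CPM in distal tubule and 20.1 and 19.3 CPM in progenitors. Hoxb4 was highest in loop of Henle, at 308 and 277 CPM. Hoxc gave 2.35% ± 0.220 of Hox UMIs in distal tubule.

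Distal tubule joins the collecting duct. Like ureteric epithelium it had high Hoxd9 (291 and 243 CPM) and low Hoxc8 (16.9 and 15.6 CPM). Like progenitors it had high Hoxa9 (199.7 and 245 CPM) and Hoxd11. Ureteric markers were present in this class. They summed to 1155 and 1025 CPM in the distal cells with at least 10 UMIs of Hoxa9, Hoxa10 and Hoxa11, and to 998 and 362 CPM in the other distal cells, which had a median depth of 13059 and 11542 UMIs against 70074 and 48642 UMIs in the first group. The distal markers summed to 1346 and 971 CPM and 1259 and 1317 CPM. Calb1, on the ureteric list, is also a gene of distal tubule, and the part of ureteric cells in the profile was not tested. Hoxd1 was found mainly in these neighbours, with 39 of its 105 UMIs in ureteric epithelium, 30 in distal tubule and 22 in early nephron.

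Within the ureteric tree, 2 sub-clusters named from tip markers (61 and 33 cells) were compared with 2 named from collecting duct markers (81 and 48 cells). The larger collecting duct sub-cluster was led by uroplakin genes such as Upk3a, which urothelium expresses, so its name rests on the marker list alone. Of 18 members tested 13 were higher at the tip, against 22.3% of all genes, and 4 lower, against 23.0% of all genes, with a median log2 fold change of 0.64 against -0.0032. All 8 Hoxb genes were higher at the tip, although Hoxb9 went opposite ways in the 2 libraries, and Hoxd1, Hoxd3, Hoxd8 and Hoxd9 were lower. The Hoxb sum was 2307 and 2161 CPM in the larger tip sub-cluster and 1597 and 1570 CPM in the smaller. It was 1176 and 1348 CPM in the uroplakin-led sub-cluster and 1522 and 1646 CPM in the other collecting duct one. The smaller tip sub-cluster overlapped the last of these. The fit had 1 residual degree of freedom. The count of 17 was 9 without the uroplakin-led sub-cluster, a setting chosen after seeing the data, and 6 with DESeq2.

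Without the uroplakin-led sub-cluster 5 calls were lost in edgeR, those of Hoxb2, Hoxb3, Hoxb6, Hoxb9 and Hoxd3 (adjusted p = 0.234, 0.574, 0.142, 0.818 and 0.0636), and Hoxb9 changed sign to -0.045. The other 3, Hoxa5, Hoxa7 and Hoxd1, did not pass the filter on low counts. The 9 that kept their call were Hoxa9, Hoxa10, Hoxb4, Hoxb5, Hoxb7, Hoxb8 and Hoxd11, higher at the tip, and Hoxd8 and Hoxd9, lower.

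Hoxb7 stood at 454 and 415 CPM and 394 and 364 CPM in the 2 tip sub-clusters, and at 232 and 213 CPM in the uroplakin-led sub-cluster and 269.6 and 235 CPM in the other collecting duct one. All tip values lay above the values of both. Hoxd3 had the opposite order, at 9.34 and 11.2 CPM and 8.66 and 6.68 CPM against 22.9 and 37.0 CPM and 16.0 and 19.5 CPM. Hoxa10 had 170 UMIs at the tip and 49 in collecting duct (2.05 ± 0.26, SE, adjusted p = 3.30e-12), and Hoxa9 93 and 36 (1.67 ± 0.32, SE, adjusted p = 2.59e-06). In library 1 and library 2 alone the changes were 2.17 and 1.48 for Hoxa10 and 1.66 and 1.70 for Hoxa9. UMIs of these genes sat in few cells, since 14 of the 280 ureteric cells held most of them. The tip sub-clusters differed in Hoxa10, at 68.5 and 12.8 CPM in one and 0 UMIs in the other, while the collecting duct ones had 19.4 and 2.31 CPM and 1.89 and 5.73 CPM. In both libraries the collecting duct values thus lay between those of the tip. Hoxa5 (20 and 5 UMIs, 2.30 ± 0.76, SE, adjusted p = 0.00813), Hoxd11 (54 and 24 UMIs, 1.48 ± 0.40, SE, adjusted p = 0.00115) and Hoxd1 (6 and 25 UMIs, -1.64 ± 0.71, SE, adjusted p = 0.0469, and -2.56 and -0.82 in the single libraries) rested on few UMIs. With DESeq2, Hoxa5, Hoxa9, Hoxd1 and Hoxd11 did not pass (adjusted p = 0.353, 0.107, 0.564 and 0.336).

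Stroma and mural cells fell into 9 sub-clusters. None was named medullary stroma, so medullary and cortical stroma were not compared, and the sub-cluster values are descriptions with no test. Hoxd11 stood at 140.4 and 141 CPM in the cortical sub-cluster (541 cells), 264 and 292 CPM in the interstitial one and 30.7 and 29.0 CPM in the adventitial one. Hoxd10 had the same order, at 33.4 and 25.0 CPM, 103 and 88.7 CPM and 23.9 and 13.4 CPM. For both genes the interstitial cells were highest, the adventitial cells lowest, and the 3 sub-clusters did not overlap. Hoxc6 did not follow this order, at 62.2 and 74.6 CPM, 100.3 and 120.3 CPM and 73.4 and 73.7 CPM. Hoxc11 was higher in the cortical cells than in the interstitial ones, at 17.5 and 16.0 CPM against 4.83 and 1.81 CPM.

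Cluster 8, unnamed but closest to the stroma list, had more RNA of some posterior Hoxa and Hoxd genes than the stroma class and less of Hoxc9 and Hoxc10. It held 255 cells and was led by Nts, Penk and Alx1, and it stayed unnamed because Acta2, a mural marker, was among its 10 leading genes. Hoxa10 stood at 459.8 and 459.7 CPM, Hoxd11 at 319 and 428 CPM and Hoxa11 at 201 and 149.9 CPM. For all 3 genes both libraries lay above those of the stroma class. Hoxc10 stood at 63.6 and 62.3 CPM against 88.2 and 95.1 CPM in the stroma class, and Hoxc9 at 28.9 and 23.2 CPM against 53.8 and 51.0 CPM, both lower in cluster 8. Hoxc11 stood at 11.6 and 6.52 CPM against 12.4 and 15.4 CPM. Its Hoxb sum was 85.8 and 92.7 CPM.

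**Figure D5:**
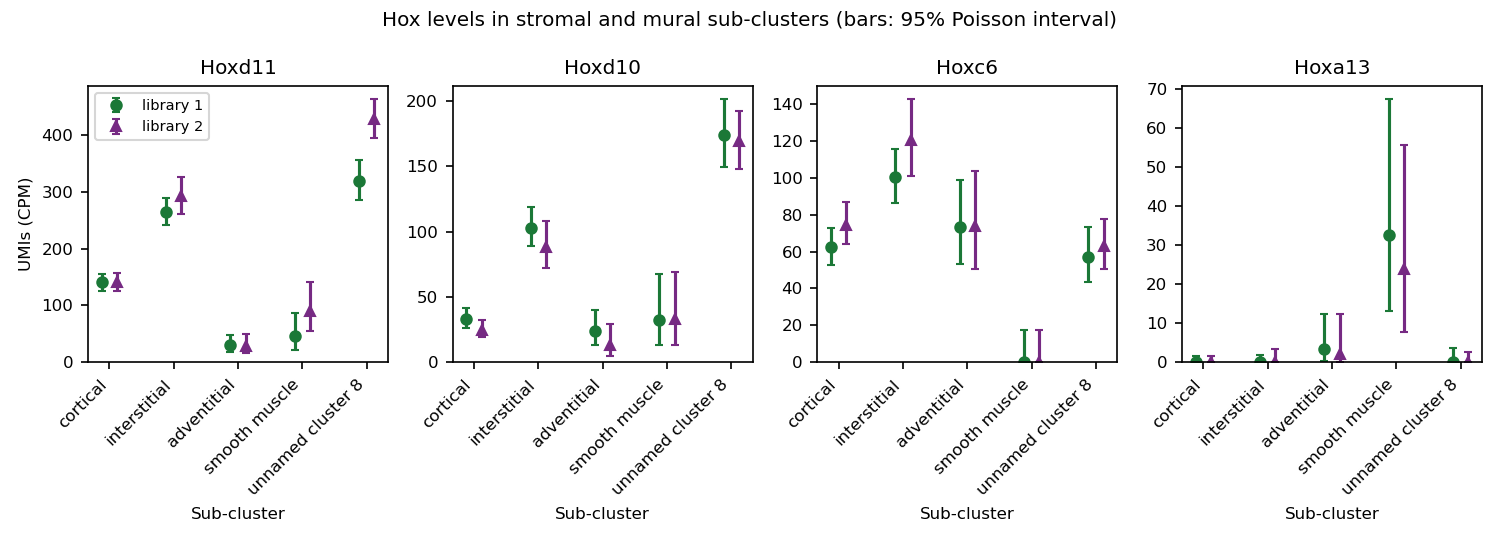
Levels of Hoxd11, Hoxd10, Hoxc6 and Hoxa13 in CPM (y axes) in 4 stromal and mural sub-clusters and in unnamed cluster 8 (x axis), with a point per library and 95% Poisson intervals as bars. Hoxd11 is lowest in the adventitial sub-cluster (30.7 and 29.0 CPM) and highest in cluster 8 (319 and 428 CPM), and Hoxa13 is highest in smooth muscle.

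Mural cells, the contractile cells around vessels and the ureter, held most of the Hoxa13, a gene of the posterior end of the body. Of 17 Hoxa13 UMIs, 14 (82.4%) lay in 12 of the 60 mural cells and 3 in stroma. The mural level was 22.8 and 22.1 CPM, from 7 UMIs in each library. In the smooth muscle sub-cluster (40 cells) it was 32.7 and 23.9 CPM, and the Hoxc sum there was 0 in both libraries. Hoxd13 stood at 3.26 and 6.33 CPM in mural cells against 0.405 and 0.534 CPM in stroma. These mural values rest on 3 UMIs in all. In each library they lie under the floor of 3 UMIs (9.77 and 9.49 CPM), so the classes cannot be ordered. By count the Hoxd13 UMIs were spread more widely than those of Hoxa13, with 10 of 23 in stroma, 7 in early nephron, 3 in progenitors and 3 in mural cells.

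Other rare members had few UMIs in several classes. Hoxb1 had 58 UMIs, with 22 in progenitors and 14 in early nephron. Hoxc13 had 12, with 6 in stroma. Hoxa2, Hoxa4 and Hoxa6 had full counts but low levels, with a highest value of 13.2 CPM (Hoxa6 in progenitors, library 1).

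TALE homeodomain proteins (Meis, Pbx and Pknox) bind DNA together with Hox proteins. All 9 genes on the list were tested in the comparisons of classes. Meis1 stood at 316 and 323 CPM in stroma and 1.23 and 0.641 CPM in ureteric epithelium (8.46 ± 0.20, SE, adjusted p = 6.78e-21), and Meis2 at 701 and 803 CPM against 5.68 and 8.12 CPM. Both ureteric levels were near those of erythroid cells, which were 1.65 and 1.19 CPM for Meis1 and 11.6 and 4.74 CPM for Meis2. Of the 9, 7 were higher in stroma than in ureteric epithelium and 1 was lower, with a median log2 fold change of 2.02. Over all genes 28.1% were higher and 30.3% lower, with a median of -0.0023. Endothelium, with its small Hox sum, had Meis2 at 989 and 1082 CPM.

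Most TALE genes were lower in nephron classes than in progenitors. Early nephron had 1 higher and 6 lower (median -0.79 on the log2 scale), proximal tubule 0 and 8 (median -1.18), and podocytes 2 and 5 (median -0.38). Over all genes 24.5% were higher and 21.2% lower in early nephron (median -0.0075), 32.7% and 34.0% in proximal tubule (median -0.048), and 28.4% and 32.3% in podocytes (median -0.075). Meis2 stood at 512 and 600.3 CPM in progenitors, 66.3 and 67.9 CPM in early nephron and 26.7 and 17.1 CPM in proximal tubule. Podocytes had more Pbx2, at 276 and 268 CPM against 75.7 and 83.5 CPM (1.63 ± 0.10, SE, adjusted p = 5.26e-13).

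Of 11 regulators of Hox chromatin and transcription 8 were tested, and Cdx1, Cdx2 and Cdx4 were too low. Stroma against progenitors gave 1 higher and 5 lower, with a median log2 fold change of -0.32, against 27.7% higher, 28.5% lower and a median of -0.019 over all genes. Ezh2, the Polycomb enzyme that methylates histone H3 at repressed genes, stood at 157 and 145 CPM in progenitors and 23.4 and 24.4 CPM in podocytes (-2.81 ± 0.18, SE, adjusted p = 6.23e-13). Its partner Eed was lower there too (-0.48 ± 0.11, SE, adjusted p = 3.50e-04), while its partner Suz12 did not pass (-0.21 ± 0.099, SE, adjusted p = 0.0761). Cbx2, a Polycomb protein, was lower (-3.96 ± 0.36, SE, adjusted p = 6.84e-10), and Jarid2 was higher (1.37 ± 0.11, SE, adjusted p = 3.74e-11). In all 2 of the 8 were higher and 3 lower in podocytes (median -0.17), against 28.4% and 32.3% of all genes.

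Non-coding genes of the clusters were in the files for 8 of 10 names, and 6 were tested. The counting is not stated to use strand, so reads of antisense genes and of their Hox partners cannot be told apart. Of the 6, 2 were higher and 4 lower in stroma than in ureteric epithelium, with a median log2 fold change of -0.67, against 28.1% and 30.3% of all genes and a median of -0.0023. Haglr, in the Hoxd cluster, stood at 14.6 and 15.4 CPM in ureteric epithelium and 0.567 and 0.855 CPM in stroma (-4.28 ± 0.36, SE, adjusted p = 2.69e-10). Hotairm1, in the Hoxa cluster, stood at 51.7 and 56.8 CPM in podocytes and 6.26 and 5.88 CPM in progenitors (3.01 ± 0.15, SE, adjusted p = 9.24e-15). Hoxb3os stood at 61.5 and 66.8 CPM in proximal tubule and 7.23 and 10.1 CPM in progenitors (2.90 ± 0.16, SE, adjusted p = 8.66e-14).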

How the data were processed

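The 2 single-cell 3′ libraries of mutant kidney were analysed. The deposited values are raw UMI counts per gene and barcode, unfiltered, per the file headers written by Cell Ranger 4, while the submitters' processing notes name Cell Ranger 6.0.1 and mm10. Intron and strand handling are not given in the sources used here. Barcodes with at least 2000 UMIs and at most 10% mitochondrial UMIs were kept, and Scrublet removed 310 (4.98%) and 212 (4.12%) doublets. Cells were scaled to 10000 UMIs and clustered (scanpy 1.11.5, igraph 0.11.9, 2000 variable genes, 30 components, 15 neighbours, resolution 1) without Hox, cofactor, regulator, sex-linked, EYFP and mitochondrial genes. Clusters were named from marker lists.

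UMIs were summed per class and library and tested with edgeR 4.0.16 (R 4.3.3), with TMM scaling, filterByExpr, quasi-likelihood test and library as a block, since all classes of a library come from the same sample. Intervals are 95% exact Poisson or binomial, and a count of 0 was set at a floor of 3. DESeq2 1.42.0 was an alternative. The scripts were tested on simulated data. The members and lists were chosen with earlier results of these data known. Full statistics are given for the 5 called members of a comparison with the largest fold change that went the same way in both libraries. Other members and genes were named after their values were seen. Counts for the TALE, regulator and non-coding lists are given above, with values for some of their genes. Values of some single genes are not reported here.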

Additional observations from a re-analysis of the deposited data

How the results depend on the processing

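The counts of Hox genes called were recomputed under 102 settings over the 10 comparisons, and 99 stayed within 1.5 times the reported count. The other 3 were early nephron against progenitors, with 15 with the libraries clustered separately, and tip against collecting duct, with 6 under DESeq2 and 9 without the uroplakin-led sub-cluster, chosen after seeing the data. The causes were not tested. Without the replicate block, which pairs the classes of a library, the counts were 29 for stroma against progenitors, 33 against ureteric epithelium and 23 against endothelium. They were 31 for progenitors against ureteric epithelium, 29 against endothelium and 22 for ureteric epithelium against endothelium. They were 27, 30 and 27 for early nephron, podocytes and proximal tubule against progenitors, and 15 for tip against collecting duct. Of 500 tested settings of 50 named fold changes, 491 kept direction and call, 9 lost the call and 0 reversed. Among all members, 3 calls changed direction between the reported fit and a setting, 1 each in early nephron with a minimum of 1000 UMIs or without doublet removal, and 1 in proximal tubule with the 5% mitochondrial limit. Hoxd1 between tip and collecting duct also lost it without the count filter (edgeR adjusted p = 0.0893) and without the block (adjusted p = 0.0567). With a mitochondrial limit of 5%, no ureteric class of 20 cells per library was left, so ureteric comparisons had no value. With 1 library left out no residual degrees of freedom remain, so those fold changes carry no test. None of the 100 reversed, but this was fixed by the choice of members that went the same way in both libraries. Hoxb9 between tip and collecting duct, a called member outside this choice, went opposite ways. The depth of the 60 mural and 280 ureteric cells limits the rare members, and thinned shares move with the depth chosen.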

Other observations

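Among the unnamed clusters, cluster 5 (525 cells, with Wnt4, Bmper and Col2a1 among its leading genes) held 1964 and 1979 CPM of Hox UMIs in library 1 and library 2. Its Hoxc sum was 751 and 714 CPM and its Hoxb sum 353 and 403 CPM. Cluster 4 (215 cells, with Sox17, Gja4 and Edn1, genes of arterial endothelium) held 711 and 642 CPM, with Hoxa7 at 91.0 and 83.8 CPM and Hoxd11 at 13.7 and 2.62 CPM. Cluster 19 (311 cells, with Tagln, Ndnf and Cryab) held 1332 and 1339 CPM, of which 573 and 549 CPM were Hoxc. These values are descriptions with no test.

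Dividing stromal cells formed 2 sub-clusters (261 and 243 cells). Hoxb2 stood at 47.6 and 56.0 CPM and 41.4 and 56.9 CPM in them, against 18.7 and 30.6 CPM in the cortical sub-cluster and 5.36 and 14.5 CPM in the interstitial one.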
